A study of Mus musculus with 4 samples.

Results

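The distal ends of the mouse autosomes were taken as the last 5 Mb of chromosomes 1 to 19, counted back from the largest peak end found on each chromosome in either of 2 lists of Rad21 binding sites. A Rad21 peak belonged to the distal end if its start lay in that window. By this rule 912 of the 18405 peaks of neural stem cells (NSCs) and 813 of the 16157 peaks of astrocytes (ASTs) were distal. The rest of the same chromosomes held 17013 NSC and 14894 AST peaks. The rule uses position alone, and no measured height or width. The window ends at the last called peak and not at the telomere, and the distance between them was not analysed here. In mm9 coordinates the windows began at 192068058 on chromosome 1 (the longest) and at 56341754 on chromosome 19 (the shortest).

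Rad21 was mapped by ChIP-seq, which recovers the DNA bound by a protein with an antibody and sequences it. NSCs had been cloned from mouse embryonic stem cells and were grown in serum-free medium with EGF and FGF. ASTs were derived from NSCs, had left the cell cycle and were grown with BMP, FGF and laminin. Neither received any other treatment, and for each of them there was 1 library of Rad21-bound DNA beside 1 of input DNA. There were thus no replicates, and no p-value is given. Errors are either the SD over the 19 autosomes or an exact 95% interval for counting error within 1 library. The depth behind the 2 lists is unknown, as no read totals are stated.

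Rad21 is part of cohesin, a ring-shaped complex that holds sister chromatids together and, in interphase, holds loops of chromatin. Loops are commonly anchored where cohesin meets CTCF, a zinc finger protein that binds DNA at a long motif. Mouse autosomes have the centromere close to one end, so that the other end, the distal one, is the only end with a long stretch of ordinary sequence next to the telomere. The question here was whether cohesin sites lie differently near that end than along the remainder of the same chromosome.

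Rad21 sites were denser near the distal ends than in the rest taken as a whole when the 19 autosomes were pooled. NSCs had 9.60 peaks per Mb in the distal windows (8.99 to 10.2) and 7.37 in the rest (7.26 to 7.48), a ratio of 1.30. ASTs had 8.56 peaks per Mb in the distal windows (7.98 to 9.17) and 6.45 in the rest (6.35 to 6.55), a ratio of 1.33. The distal windows thus held 5.09% of the autosomal NSC peaks and 5.18% of the autosomal AST peaks on 3.95% of the length. The excess was of the same order in both cell types, and the number of NSC peaks per AST peak was 1.12 in the distal windows and 1.14 in the rest.

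The pooled excess was not a property of each chromosome. The distal window was denser than the rest on 14 of 19 autosomes in NSCs and on 14 of 19 in ASTs, and in both lists these were the same chromosomes, since all 19 fell on the same side in the 2 lists. The mean difference between the distal window and the rest was 2.21 peaks per Mb ± 4.64 (SD, n = 19 autosomes) in NSCs and 2.02 ± 4.51 in ASTs. The difference is therefore smaller than the spread between chromosomes. Per-chromosome ratios ranged from 0.194 to 2.85 in NSCs and from 0.208 to 3.16 in ASTs. Leaving out 1 chromosome at a time, the pooled ratio lay between 1.22 and 1.37 in NSCs and between 1.23 and 1.39 in ASTs, lowest in both lists without chromosome 15.

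**Figure D1:**
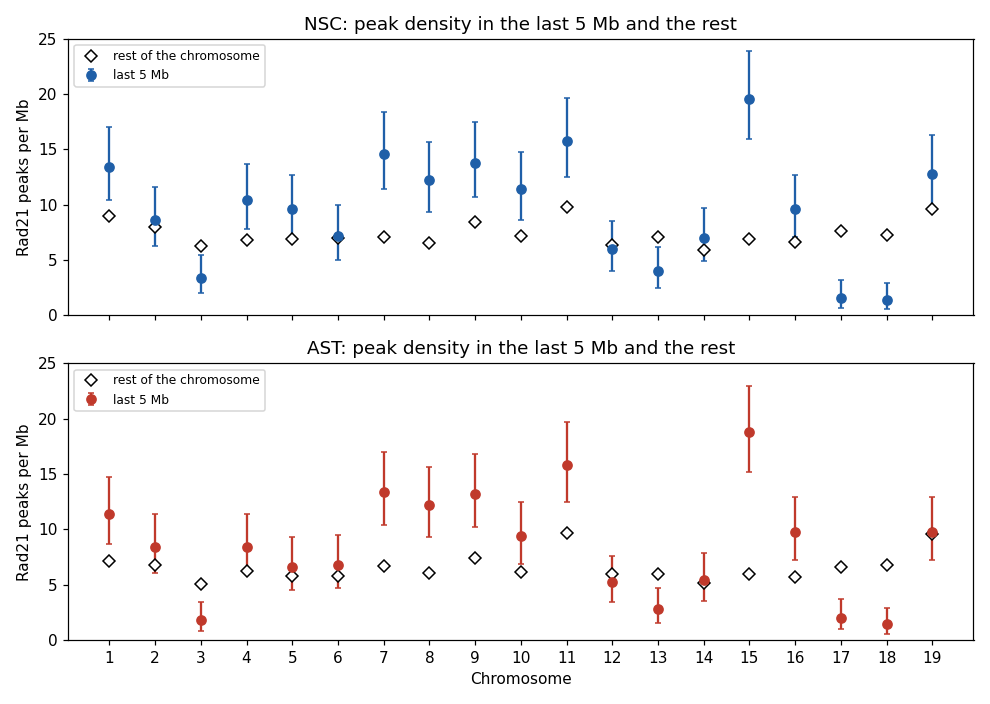
Rad21 peaks per Mb (vertical axis) in the last 5 Mb (filled circles, with exact 95% Poisson intervals) and in the rest of each autosome (open diamonds), by chromosome (horizontal axis), with NSCs above and ASTs below. Chromosome 15 stands highest at 19.6 and 18.8 peaks per Mb. Chromosomes 17 and 18 lie at 1.4 to 2.0, the lowest in NSCs, while in ASTs chromosome 3 (1.8) lies below chromosome 17 (2.0).

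Distal density varied widely between chromosomes. In NSCs it ran from 1.4 to 19.6 peaks per Mb with a median of 9.60 (SD 4.97), and in ASTs from 1.4 to 18.8 with a median of 8.4 (SD 4.88). Other windows of the same length varied too. The SD over the 19 autosomes was 4.48, 4.50 and 4.91 in NSCs from 15 to 20, 20 to 25 and 25 to 30 Mb from the end, and 2.65 and 2.66 from 5 to 10 and 10 to 15 Mb. In ASTs it was 4.91, 4.22 and 4.81, and 2.60 and 2.87. Chromosomes dense in one cell type were dense in the other, with a Pearson correlation of distal counts of 0.978 (Spearman 0.973) over the 19 windows. Most of these sites are the same peaks in both lists, and the correlation is given as a description. The order of the distal windows followed that of the rest only loosely, with a Spearman correlation of 0.370 in NSCs and 0.385 in ASTs over the same 19 chromosomes.

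The densest distal ends were those of chromosomes 15, 11 and 7 in both cell types. Chromosome 15 held 98 NSC and 94 AST peaks in its last 5 Mb, against 6.88 and 5.94 peaks per Mb in its rest. Chromosome 11, which is rich in Rad21 sites along its whole length, held 79 NSC and 79 AST distal peaks, or 15.8 per Mb in both. Chromosome 7, whose distal end is known for imprinted genes such as Igf2 and H19, held 73 NSC and 67 AST peaks. For all 3 chromosomes the Poisson interval of the distal density lay above the density of the rest in both lists. This was so for 11 of 19 autosomes in NSCs and for 8 of 19 in ASTs. These intervals cover counting error only, and not the spread between windows. How many other windows of 5 Mb would lie above or below the density of the rest by this measure was not counted.

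The sparsest distal ends were those of chromosomes 18, 17 and 3. Chromosome 18 held 7 NSC and 7 AST peaks in 5 Mb, a density of 1.4 per Mb against 7.23 and 6.74 in its rest. Chromosome 17 held 8 NSC and 10 AST peaks, and chromosome 3 held 17 and 9. Together with chromosome 13, which held 20 NSC and 14 AST peaks, these were the 4 autosomes whose interval lay below the density of the rest, and they were the same 4 in both lists. Without chromosomes 17 and 18 the pooled ratio of distal density to the rest was 1.43 in NSCs and 1.46 in ASTs. Without chromosomes 1, 7, 8, 9 and 15, whose ends are dense, it was 1.08 and 1.05. Both sets were left out after their densities were known. The second set is not that of the densest ends, since chromosome 11, at 15.8 per Mb in both lists, was kept.

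**Figure D2:**
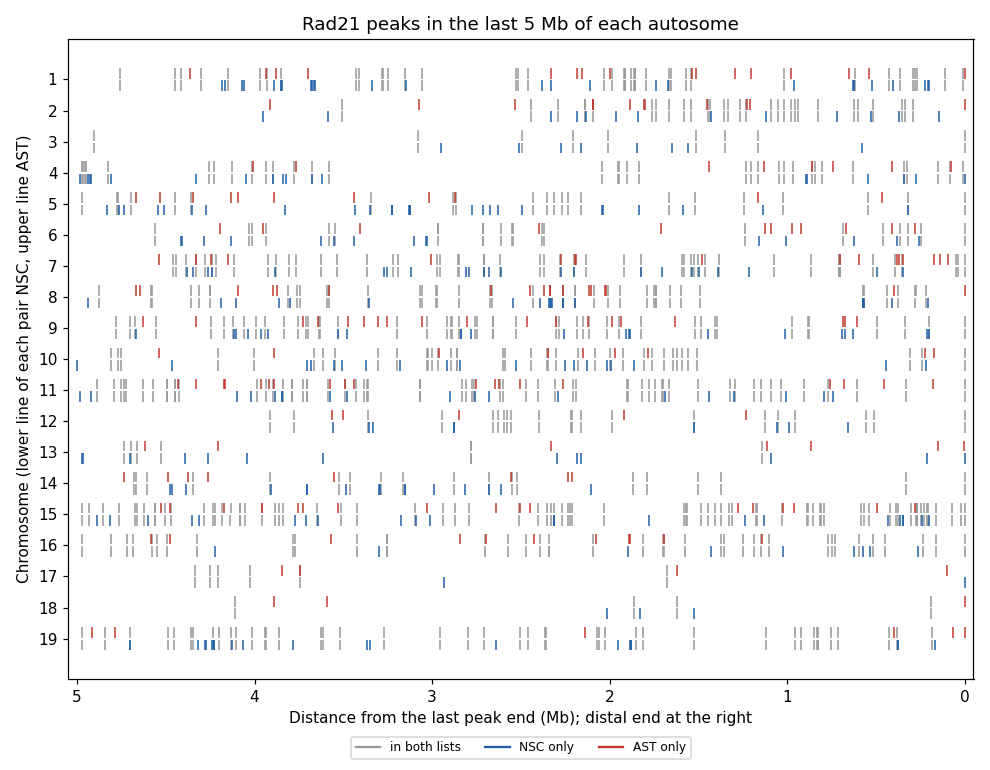
Position of each distal Rad21 peak as its distance from the last peak end (Mb, horizontal axis, distal end at the right) on each autosome (vertical axis), with AST peaks on the upper and NSC peaks on the lower line of each pair. Peaks found in both lists are grey, NSC-only peaks blue and AST-only peaks red, and the rows of chromosomes 17 and 18 are nearly empty while that of chromosome 15 is filled throughout.

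Density did not climb toward the end. In 1 Mb steps from the last peak, NSC density was 9.37, 9.32, 10.7, 9.26 and 9.37 peaks per Mb over the 19 autosomes, and the next 2 steps outside the window gave 9.21 and 8.26. In ASTs the 5 steps gave 8.74, 8.68, 9.79, 7.63 and 7.95, followed by 8.05 and 7.47 outside. The intervals of all of these steps overlapped within each list. The border of the window therefore marks no step in density. The peaks nearest to it were an NSC peak on chromosome 10, 1.97 kb inside (fold enrichment 5.28), and 1 site on chromosome 11 just outside it in both lists, 0.473 kb away in NSCs (14.4) and 0.38 kb in ASTs (9.51). The nearest AST peak inside lay 27.7 kb from the border, on chromosome 15 (6.12).

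Farther in, density was again as high as at the end. In windows of 5 Mb counted back from the last peak, NSCs had 9.60, 8.75, 8.18, 9.22, 9.74 and 8.0 peaks per Mb out to 30 Mb. ASTs had 8.56, 7.95, 7.35, 8.37, 8.69 and 7.17. The stretch from 20 to 25 Mb was thus as dense as the distal window in both lists, with 9.12 to 10.4 peaks per Mb as its interval in NSCs and 8.11 to 9.31 in ASTs. From 30 to 40 Mb the density was 7.54 in NSCs and 6.53 in ASTs, close to the mean of the rest.

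**Figure D3:**
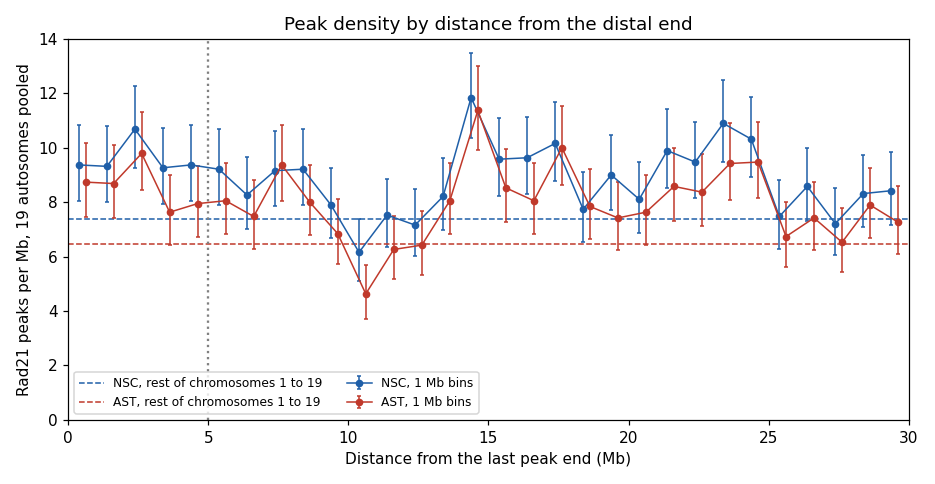
Rad21 peaks per Mb over the 19 autosomes (vertical axis) in 1 Mb steps from the last peak end (horizontal axis, Mb), NSCs in blue and ASTs in red, with exact 95% Poisson intervals. The dashed lines are the density of the rest (7.37 and 6.45), and the dotted line at 5 Mb is the border of the distal window, at which neither list changes level.

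On each autosome the distal window was ranked among the 11 to 38 windows of 5 Mb that fit there. With so many windows, any given window is seldom the densest. The distal window was the densest on 2 autosomes in NSCs (chromosomes 7 and 15). In ASTs it was the densest on 3 (chromosomes 7, 9 and 15), on chromosome 9 in a tie with another window. It stood in the upper 25% of windows on 11 autosomes in NSCs and 8 in ASTs, and in the lowest 25% on 4 in both. It held more peaks than the median window of its chromosome on 15 autosomes in NSCs and 14 in ASTs. Set against its direct neighbour, the window from 5 to 10 Mb, it held more peaks on 12 and fewer on 7 autosomes in NSCs. In ASTs it held more on 10 and fewer on 9.

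The opposite end of the chromosome had fewer sites. The 5 Mb that follow the first peak of either list, on the centromere side, held 576 NSC and 574 AST peaks. That was 6.06 (5.58 to 6.58) and 6.04 (5.56 to 6.56) per Mb. The first peak started at 8581987 on chromosome 14 and between 3006653 and 3754911 on the other autosomes. The stretch before it was not counted. The distal windows held 1.58 times as many peaks in NSCs and 1.42 times as many in ASTs. The distal end was the denser of both ends on 15 of 19 autosomes in NSCs and on 14 in ASTs, where 1 more was tied. Chromosome 19 was among the exceptions, with 80 NSC and 73 AST peaks in its first 5 Mb against 64 and 49 in its last. Sharing between the cell types was 68.9% (65.0 to 72.7) for NSC and 68.8% (64.8 to 72.6) for AST peaks of these first 5 Mb. The distal share was 66.8% (63.6 to 69.8) for NSC and 75.2% (72.0 to 78.1) for AST peaks.

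Adjacent Rad21 sites lay closer together in the distal windows, as their higher density implies. The median start-to-start distance was 47.9 kb in NSCs (quartiles 16.8 and 106 kb) against 58.4 kb in the rest (19.98 and 136 kb). In ASTs it was 58.1 kb (quartiles 20.5 and 126 kb) against 67.3 kb (23.7 and 158 kb). Pairs of sites less than 10 kb apart made up 163 of 893 distal gaps in NSCs (18.3%, 15.8 to 20.9) and 15.8% of the gaps of the rest (15.3 to 16.4). In ASTs they made up 114 of 794 (14.4%, 11.99 to 16.99) and 13.5% (12.9 to 14.05). The median distance was shorter in the distal window on 10 of 19 autosomes in each list. The shorter pooled median was thus found on 10 chromosomes and not on the other 9, and it gives most weight to the chromosomes with most peaks.

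**Figure D4:**
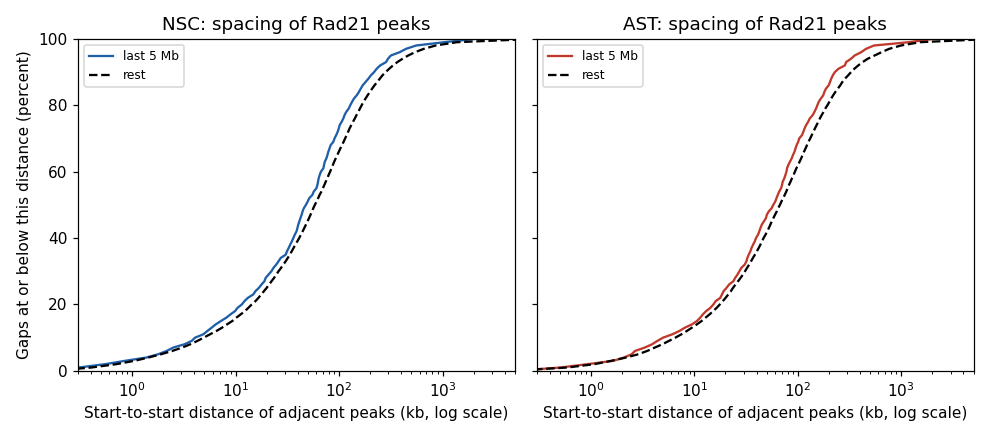
Percentage of gaps between adjacent Rad21 peaks (vertical axis) at or below a given start-to-start distance (kb, horizontal axis, log scale), in NSCs on the left and ASTs on the right. The coloured line for the last 5 Mb runs left of the dashed line for the rest, except for a brief crossing at the short end in ASTs. The medians are 47.9 and 58.4 kb in NSCs and 58.1 and 67.3 kb in ASTs.

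Megabases without any site were also counted. Of the 95 distal windows of 1 Mb, 3 were empty in NSCs (3.16%, 0.656 to 8.95) and 5 in ASTs (5.26%, 1.73 to 11.9). In the rest 277 of 2301 were empty in NSCs (12.04%, 10.7 to 13.4) and 272 in ASTs (11.8%, 10.5 to 13.2). Windows of 20 peaks or more numbered 6 of 95 in NSCs (6.32%, 2.35 to 13.2) and 5 of 95 in ASTs (5.26%, 1.73 to 11.9), against 3.56% (2.84 to 4.404) and 1.87% (1.36 to 2.51) of the windows of the rest. These intervals overlap those of the rest, except for empty windows in NSCs. The terminal megabase holds a peak of at least 1 list because the window is counted from the last peak. Without it 3 of 76 windows were empty in NSCs (3.95%, 0.822 to 11.1) and 5 of 76 in ASTs (6.58%, 2.17 to 14.7), intervals that overlap those of the rest in both lists.

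The fullest distal megabase was the terminal one of chromosome 15, from 102382817 to 103382816, with 30 NSC and 27 AST peaks, 24 of them shared in each list. The next in NSCs was also on chromosome 15, from 98382817 to 99382816, with 24 peaks (19 shared). It was followed by a tie between chromosome 8 from 128453429 to 129453428 (13 shared) and chromosome 11 from 117669979 to 118669978 (17 shared), each with 22 NSC peaks. The same pair tied for the second place in ASTs with 23 peaks each (13 and 17 shared). The chromosome 8 window held 9 NSC-only and 10 AST-only peaks beside its 13 shared ones. Peaks common to both cell types were thus the majority in each of these windows. Over all distal windows 66.8% of NSC and 75.2% of AST peaks were shared.

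The longest distal stretches without a site lay on the sparse chromosomes. The longest gap in NSCs was 2098 kb on chromosome 18, from a peak at 86660100 to one at 88757883. The longest in ASTs was 2066 kb on chromosome 17, from 91492010 to 93557916. A gap on chromosome 3 was the second longest in both lists, at 1826 kb in each, from 154480794 to 156307030 in NSCs and from 154480801 to 156307004 in ASTs. The fourth longest was also common to both lists, on chromosome 4 (1535 kb in each), although that window held 52 NSC and 42 AST peaks. At least 1 gap of over 1 Mb was present in 9 of 19 distal windows in NSCs and in 7 in ASTs. How many other windows of the same length hold such a gap was not counted. Long gaps were not more common among distal gaps than among those of the rest. The 99th percentile of distance was 1041 kb in the distal windows and 1381 kb in the rest in NSCs. In ASTs it was 1187 and 1520 kb.

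The distal sites were shared between NSCs and ASTs in proportions close to those of other sites. A site counted as shared with 1 bp or more in common with any site of the other cell type. Of the 912 distal NSC peaks 609 were shared (66.8%, 63.6 to 69.8), against 65.8% of all autosomal NSC peaks. Of the 813 distal AST peaks 611 were shared (75.2%, 72.0 to 78.1), against 75.3% of all autosomal AST peaks. In the rest alone the shares were 65.8% (65.1 to 66.5) and 75.3% (74.6 to 76.0). The difference between distal and rest was 0.991 percentage points in NSCs (−2.17 to 4.04, from the interval of the distal share) and −0.111 in ASTs (−3.23 to 2.82). That left 303 NSC-only and 202 AST-only distal peaks, so 60.0% of the cell-type-only distal peaks (55.6 to 64.3) were NSC-only, against 61.2% in the rest (60.3 to 62.2). This share depended on the settings: with lists of equal length 48.9% of them were NSC-only, and at a −log10 q of at least 10 in both lists it was 77.4%. The share of the rest moved along with it. The difference between distal and rest was −1.36 percentage points with lists of equal length and 2.73 at that threshold, against −1.24 as first counted.

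The share of distal NSC peaks found in ASTs depended on the setting. It was 5.25 percentage points above the rest with a window of 2 Mb, and 4.80 percentage points below it (a difference of −4.80) when both lists were held to a −log10 q of at least 10. A threshold on both lists counts a peak as cell-type-only when its partner falls below it.

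Distal sites of a given strength were also shared about as often as others, except for the weakest NSC sites. Each list was divided at the quartiles of its own fold enrichment, the authors' ratio of fragments at the summit to local background. From the lowest bin to the highest, 39.1%, 55.5%, 80.3% and 94.8% of distal NSC peaks were found in ASTs. In the rest it was 31.3%, 54.0%, 80.8% and 96.95%. For distal AST peaks the shares found in NSCs were 55.9%, 73.6%, 85.7% and 91.4%, against 56.6%, 72.2%, 84.3% and 89.9% in the rest. The interval of the distal share included the value of the rest in each bin except the lowest NSC bin, where it was 32.8 to 45.8 for 90 of 230 peaks against 31.3% in the rest (29.9 to 32.7). About 1 such interval in 20 misses by counting error alone, and 8 bins were examined. In the lowest NSC bin the intervals of distal and rest lay just apart, and the cause was not tested.

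**Figure D5:**
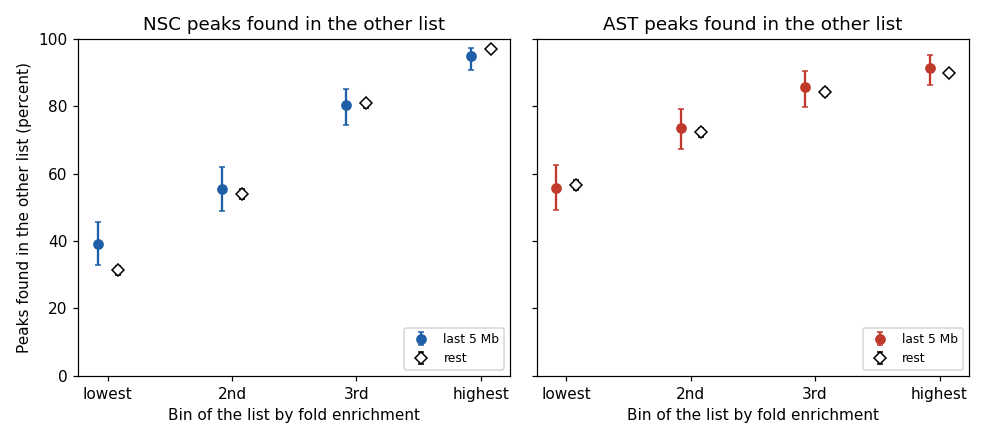
Percentage of peaks also present in the second list (vertical axis) by bin of fold enrichment (horizontal axis), with NSC peaks on the left and AST peaks on the right, filled circles for the last 5 Mb, open diamonds for the rest and exact 95% binomial intervals. Distal and other peaks rise together, from 39.1% and 31.3% to 94.8% and 96.95% in NSCs and from 55.9% and 56.6% to 91.4% and 89.9% in ASTs.

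Single distal ends differed in how much of their binding the cell types had in common. Chromosomes 16 and 15 had the most shared NSC sites, at 81.3% (67.4 to 91.1) of 48 and 77.6% (68.0 to 85.4) of 98, against 64.5% and 67.0% in the rest of these chromosomes. Chromosomes 5 and 13 had the fewest, at 45.8% (31.4 to 60.8) of 48 and 35.0% (15.4 to 59.2) of 20, against 62.6% and 65.2%. In the AST list only the interval of chromosome 13 missed the value of its rest, with 7 of 14 distal peaks shared (50%, 23.04 to 76.96) against 77.3%. On chromosome 3 all 9 distal AST peaks were shared, while 8 of its 17 NSC peaks were NSC-only. In all, the interval missed the value of the rest on 4 of 19 chromosomes in NSCs (2 above and 2 below) and on 1 in ASTs, and about 1 per list would miss by counting error alone.

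The 4 sparse ends (chromosomes 3, 13, 17 and 18) together had 26 shared peaks in each list, out of 52 in NSCs (50%, 35.8 to 64.2) and 40 in ASTs (65.0%, 48.3 to 79.4). The other 15 ends had 67.8% (64.6 to 70.9) in NSCs and 75.7% (72.5 to 78.7) in ASTs. Peaks of the sparse ends had a median fold enrichment of 7.38 against 8.51 in NSCs, and of 7.44 against 7.64 in ASTs. These 4 chromosomes were grouped after their densities were known, and the values are a description.

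NSC peaks outnumbered AST peaks on 14 of the 19 distal ends. AST peaks outnumbered NSC peaks on 2 (chromosomes 16 and 17), and the counts were equal on 3 (chromosomes 8, 11 and 18). The NSC list is the longer one, with 17013 against 14894 peaks in the rest. There NSC peaks were the more numerous on every autosome, so the count of distal ends shows no particular NSC excess. The greatest excess of NSC peaks was found on chromosomes 5 and 19, with 48 against 33 and 64 against 49. Each shared peak has a partner in the other list, so shared counts are nearly equal in the 2 lists by definition. They were 22 and 22 on chromosome 5 and 44 and 43 on chromosome 19. On any chromosome a difference in counts must therefore lie almost wholly in cell-type-only peaks.

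Distal peaks had nearly the same height and width as other peaks. Median fold enrichment was 8.51 in NSCs (quartiles 6.13 and 12.9) against 8.80 in the rest (6.13 and 13.5). In ASTs it was 7.61 (quartiles 6.08 and 10.65) against 7.98 (6.08 and 11.03). The medians differ by 0.290 and 0.370, and 1 fragment more or less at the usual background changes fold enrichment by 0.293 in NSCs and 0.380 in ASTs. Median fold enrichment was lower in the distal window on 12 autosomes and higher on 5 in both lists. Median width was 225.5 bp against 233 bp in NSCs and 198 bp against 204 bp in ASTs. The distal peaks covered 2399 bp per Mb in NSCs against 1854 in the rest, and 1795 against 1393 in ASTs.

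Shared and cell-type-only peaks differed at the distal ends as they did elsewhere. Median fold enrichment of distal NSC peaks was 10.6 for shared and 6.16 for NSC-only peaks, with widths of 259 and 177 bp. In the rest it was 11.15 and 6.13, with widths of 268 and 177 bp. Distal AST peaks had 8.36 and 6.12 (209 and 156 bp), and those of the rest 8.70 and 6.46 (216 and 162 bp). The summits of the 609 distal NSC peaks and their AST partners lay a median of 20 bp apart (quartiles 10 and 37 bp), and 86.5% (83.6 to 89.1) were within 50 bp. The rest had a median of 19 bp and 88.3% (87.7 to 88.9) within 50 bp. The NSC peak was the wider of the pair in 73.7% of distal pairs (70.0 to 77.2) and in 73.2% of the others (72.3 to 74.0). Fold enrichment within pairs had a Spearman correlation of 0.532 over the 609 distal and 0.524 over the 11192 other pairs.

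The local background that the peak caller used, recovered from its fold enrichment and p-value, exceeded the usual level more than 1.1-fold at 27.1% of distal NSC peaks (24.2 to 30.1) and at 26.9% of the rest (26.2 to 27.6). In ASTs it was raised at 26.4% of distal peaks (23.4 to 29.6) and at 34.2% of the rest (33.5 to 35.0). The AST difference was still there without chromosome 1, where background is widely raised (22.9%, 19.9 to 26.0, against 30.5%, 29.8 to 31.3). Without the 11 distal NSC and 6 distal AST peaks of background over 10 fragments, and the like peaks of the rest, the density ratio was 1.30 in NSCs and 1.32 in ASTs.

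The strongest distal sites were found in both lists, as were most strong sites elsewhere. In the highest bin of fold enrichment 96.95% of NSC and 89.9% of AST peaks of the rest were shared. The 5 distal NSC peaks of highest fold enrichment, in mm9 coordinates, began with chromosome 7 at 150892611 to 150893012 (40.8, with an AST partner of 24.3) and chromosome 4 at 154623135 to 154623742 (36.96, partner 42.2). They went on with chromosome 15 at 99246963 to 99247334 (36.05, partner 30.7), then chromosome 8 at 129510381 to 129510843 (35.5, partner 17.02), and lastly chromosome 19 at 57329596 to 57330075 (34.3, partner 9.13). The chromosome 4 and chromosome 15 sites were also among the 5 strongest distal AST peaks. The other 3 AST peaks lay on chromosome 9 at 122557096 to 122557331 (34.2, NSC partner 13.2), on chromosome 7 at 150554210 to 150554471 (30.1, partner 10.85), and, for the last, on chromosome 10 at 126356183 to 126356525 (29.8, partner 21.2). The strongest distal peak ranked 23rd among all NSC peaks and 12th among all AST peaks. Fold enrichment is relative to each list's own background, so the partners' values are set side by side only.

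Cell-type-only sites near the ends were weaker than these. The 3 strongest NSC-only peaks lay on chromosome 1 at 195330190 to 195330471 (fold enrichment 18.9) and on chromosome 6 at 149068430 to 149068737 (17.6) and 148699932 to 148700185 (16.1). The nearest AST peaks were 54.2, 12.2 and 45.5 kb away. The 3 strongest AST-only peaks were a site on chromosome 6 at 148230492 to 148230718 (19.8), another on chromosome 9 at 119715478 to 119715705 (19.8) and a further one on chromosome 11 at 117704377 to 117704605 (17.9). A peak on chromosome 12 at 117657524 to 117657739 had the same fold enrichment as the last of these (17.9) and is named here for the tie. The NSC peaks nearest to the first 3 were 66.9, 84.2 and 18.1 kb away. The 4 AST-only peaks had widths of 227, 228, 229 and 216 bp. The terminal 1.1 Mb of chromosome 6 held 2 of the NSC-only and 1 of the AST-only sites named.

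On 11 of 19 autosomes (3, 5, 6, 7, 9, 10, 11, 12, 14, 15 and 16) the last NSC and the last AST peak overlapped. Over all autosomal peaks 65.8% of the NSC and 75.3% of the AST list were shared. Their fold enrichment ranged from 5.53 to 15.25 in NSCs (median 8.51) and from 4.05 to 14.45 in ASTs (median 8.80), within the usual range of distal peaks. On chromosome 11, for example, the last site lay at 121669586 to 121669978 in NSCs (15.25) and at 121669615 to 121669851 in ASTs (6.97).

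On the other 8 autosomes the last peaks of both lists ended 2.92 to 204 kb apart, and the final one was AST-only on chromosomes 1, 2, 8, 18 and 19 and NSC-only on chromosomes 4, 13 and 17. The local background at the 5 AST-only terminal peaks was 7.21, 4.51, 1.80, 1.00 and 12.6 times the usual level, in the order of the chromosomes. That of the 3 NSC-only terminal peaks was 1.00, 1.55 and 1.29 times the usual. On chromosome 19 the final AST peak had a fold enrichment of only 1.81. Raised background was seen at 12 of 19 last AST peaks and at 7 of 19 last NSC peaks. Over all distal peaks it was seen at 26.4% in ASTs and 27.1% in NSCs. The part of raised background in these calls was not tested.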

How the data were processed

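The authors deposited 1 list of called Rad21 peaks per cell type, with start, end, summit, fold enrichment (a ratio of the pile-up to local background) and p and q as −log10 values. Alignment with Bowtie 1.0.0, peak calling with MACS2 2.0.9 and build mm9 are named by the submitters' processing notes. Settings and thresholds are not given in the sources used here, and input libraries entered no comparison. The members and comparisons were chosen with earlier results of these data known.

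Density was counted per Mb from the first to the last peak of either list on chromosomes 1 to 19. Shares have Clopper-Pearson and densities exact Poisson intervals, all 95% and for counting error only. Each cell type had 1 library, so no test was made. Local background was recovered from fold enrichment and −log10 p as a Poisson tail (scale 0.944 in NSCs, 1 in ASTs), with the deposited −log10 p matched within 0.05 for 100% and 99.99% of peaks. Positions are counted from 1. Peaks were named by fixed rules: the 5 strongest distal and 3 strongest cell-type-only distal peaks, the last peaks, the 3 densest and sparsest ends, the 3 fullest megabases and the longest gap per list, with others named after their values were seen. Scripts were tested on simulated lists. Gene names and sequences were not assigned, since no mm9 reference was used here. The work was done in Python 3.11.15 with scipy 1.17.1, pandas 2.3.3, matplotlib 3.10.9 and numpy 2.4.6.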

Additional observations from a re-analysis of the deposited data

How the results depend on the processing

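Of 135 recomputed comparisons between the distal windows and the rest, 5 moved beyond the counting interval of the reported value, or for counts beyond 1.5 times. The density ratio was above 1 in all 24 recomputations, from 1.20 to 1.37. In ASTs it was 1.20 at a −log10 q of at least 10 and 1.23 without chromosome 15. Under the same threshold the AST ratio of median fold enrichment was 1.00 instead of 0.954, and the distal minus rest difference in the share of NSC sites seen in ASTs came to −4.80 percentage points instead of 0.991. With a distal window of 2 Mb that difference was 5.25 percentage points. The cause was not tested. The settings without chromosome 15 and without peaks of background over 10 were chosen after seeing the data. No paired analysis was possible because each cell type had 1 Rad21 library. Depth was not measured, so a peak absent from a list need not be an unbound site.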
